A study of Mus musculus with 9 samples.

Results

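The 9 genes described here are *Prg2*, *Prg3*, *Epx*, *Rnase2a*, *Ear2*, *Ear6*, *Ear10*, *Ear1* and *Il5ra*. They encode granule proteins, ribonucleases and an IL-5 receptor subunit, and are grouped here as eosinophil genes. *Ear1* and *Ear2* are not particular to eosinophils, as described below. All 9 were picked by symbol from the table of 34638 genes, each matching 1 entry. Expression was measured by RNA-seq in whole lung of 9 wild-type C57BL/6 mice, 3 in each of 3 groups. Control mice were challenged with phosphate buffered saline. IL-33 mice received 0.5 µg of recombinant mouse IL-33 into the trachea on each of days 0, 1, 2 and 3. IL-33+LM8 mice received the same challenges and, before them, LM8, an inhibitor of the adaptor protein MyD88, at 10 mg/kg into the peritoneum. The control and IL-33 mice were females of 6 to 8 weeks. Sex, age and sampling day of the IL-33+LM8 mice are not given in the sources used here. No group received LM8 without IL-33, so the comparison of IL-33+LM8 with IL-33 is the only one whose stated treatments differ in LM8 alone. In bulk lung, fewer eosinophils and less RNA per eosinophil cannot be told apart, and p-values measure the spread between the libraries of these mice.

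Eosinophils store cationic proteins in their granules: major basic protein, eosinophil peroxidase and a family of ribonucleases that has multiplied in rodents, the eosinophil-associated ribonucleases or Ears. IL-5, made mainly by T helper 2 cells and group 2 innate lymphoid cells, is the cytokine that makes them mature, leave the marrow and survive, and it acts through the receptor subunit encoded by *Il5ra*. IL-33 is an epithelial alarmin whose receptor signals through MyD88 and drives IL-5 and IL-13 production. Some Ear genes are not private to eosinophils, since *Ear1* and *Ear2* are also transcribed by alveolar macrophages.

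Total counts ran from 61767006 to 73869252 in control mice, from 53877663 to 66029783 in IL-33 mice and from 59753648 to 90607218 in IL-33+LM8 mice. Levels are given as FPKM, the read count divided by gene length and library size, so that genes can be set side by side. Control replicate 3, IL-33 replicate 1 and IL-33+LM8 replicate 3, each the deepest library of its group, deviated from their group means in the same direction. Leaving them out together gave the same numbers of called genes among the 9 in every comparison. Differences were tested by edgeR's quasi-likelihood test on counts over all genes averaging 0.5 FPKM or more. Calls required both a Benjamini-Hochberg adjusted p under 0.05 and a log2 fold change of 1 or more in either direction, termed the minimum fold below. Of the 9 genes, 6 passed this filter. *Prg3*, *Epx* and *Ear10* did not, and their log2 fold changes come from a fit on all genes with a count above 0.

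*Ear1* and *Ear2* are near-copies whose levels took different courses over the 3 groups. Their longest open reading frames, taken from GENCODE M21 transcripts, were 468 and 471 bases long and 95.1% identical, with 23 of 471 aligned positions differing. The stretch of 300 aligned positions that holds 21 of these differences is shown to let the pair be compared, from base 68 to 364 of *Ear1* and from base 68 to 367 of *Ear2*. The capitals mark the bases that differ in the alignment.
Ear1: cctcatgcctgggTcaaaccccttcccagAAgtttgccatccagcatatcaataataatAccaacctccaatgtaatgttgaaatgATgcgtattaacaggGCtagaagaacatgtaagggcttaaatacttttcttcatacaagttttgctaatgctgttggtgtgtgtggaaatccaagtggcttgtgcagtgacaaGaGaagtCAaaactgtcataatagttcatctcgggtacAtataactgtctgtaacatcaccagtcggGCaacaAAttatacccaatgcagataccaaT
Ear2: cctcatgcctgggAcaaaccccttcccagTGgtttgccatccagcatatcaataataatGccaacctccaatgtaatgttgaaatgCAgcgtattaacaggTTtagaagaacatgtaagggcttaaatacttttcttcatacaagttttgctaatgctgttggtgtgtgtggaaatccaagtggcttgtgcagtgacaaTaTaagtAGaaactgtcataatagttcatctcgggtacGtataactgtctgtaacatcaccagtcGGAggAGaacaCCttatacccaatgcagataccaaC

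The windows around the start sites of both genes were closer still, with 294 of 303 aligned positions identical, or 97.0%. They hold 250 bases before and 50 after the RefSeq start (GRCm38.p6), at chr14:43819590-43819889 on the minus strand for *Ear1* and at chr14:44102404-44102703 on the plus strand for *Ear2*. Capitals again mark what differs between them, including the ends that one window has and the other lacks.
Ear1: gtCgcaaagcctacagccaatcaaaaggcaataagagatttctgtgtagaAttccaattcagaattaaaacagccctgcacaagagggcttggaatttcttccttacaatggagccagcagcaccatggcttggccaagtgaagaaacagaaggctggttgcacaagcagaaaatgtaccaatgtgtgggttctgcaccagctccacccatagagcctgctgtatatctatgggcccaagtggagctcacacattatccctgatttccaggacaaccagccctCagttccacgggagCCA
Ear2: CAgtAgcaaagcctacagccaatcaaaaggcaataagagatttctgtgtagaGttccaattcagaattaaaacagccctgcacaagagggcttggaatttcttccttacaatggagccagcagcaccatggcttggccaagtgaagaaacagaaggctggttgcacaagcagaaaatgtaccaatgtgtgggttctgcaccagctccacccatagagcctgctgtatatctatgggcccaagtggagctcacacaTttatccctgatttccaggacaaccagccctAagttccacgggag

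The window of *Rnase2a*, shown because this ribonuclease gene was the most abundant after *Ear2* in IL-33 mice, shared 66.1% of aligned positions with that of *Ear1* and 64.6% with that of *Ear2*. It lies at chr14:51256063-51256362 on the minus strand. The capitals in it mark a match to the C/EBP motif TTNNGCAA, read on either strand, 217 bases before the start.
Rnase2a: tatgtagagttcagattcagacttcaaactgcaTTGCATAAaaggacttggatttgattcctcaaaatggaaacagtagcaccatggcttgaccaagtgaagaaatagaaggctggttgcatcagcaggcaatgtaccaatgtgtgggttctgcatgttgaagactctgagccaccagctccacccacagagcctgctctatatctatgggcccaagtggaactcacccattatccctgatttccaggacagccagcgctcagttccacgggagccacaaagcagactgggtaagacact

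A window from RefSeq was matched for 8 of the 9 genes, all but *Prg2*. The C/EBP letters TTNNGCAA were found in 4 of the 8, against 10.8% of 32851 promoter windows of the same length. In *Ear1*, *Ear2* and *Ear10* the match was TTGCACAA, 92, 90 and 94 bases before the start, and it lies within sequence that these windows share. The GATA letters AGATAA or TGATAA occurred in 2 of the 8, *Prg3* and *Il5ra* (18.6% of all windows), and the PU.1 letters GAGGAA in 2, *Il5ra* and *Rnase2a* (28.3%). The STAT6 motif occurred in 2, *Il5ra* and *Epx* (6.95%), and the STAT letters TTCNNNGAA in 0 (8.30%), all on either strand. The matched letters do not separate *Ear1* from *Ear2*.

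Of the 9 genes, 5 lie on chromosome 14, all ribonucleases. By the table's own positions, which differ from GRCm38 although the submitters' notes name mm10, *Ear1* (ENSMUSG00000072601) spans chr14:44056222-44112974, *Ear10* (ENSMUSG00000090166) chr14:44160177-44161016, *Ear2* (ENSMUSG00000072596) chr14:44340111-44340991, *Rnase2a* (ENSMUSG00000047222) chr14:51492719-51493569 and *Ear6* (ENSMUSG00000062148) chr14:52091156-52092100. The major basic protein genes *Prg2* (ENSMUSG00000027073) and *Prg3* (ENSMUSG00000027072) stand side by side on chromosome 2, at chr2:84810805-84813976 and chr2:84818559-84824230 with 4582 bases between them. *Epx* (ENSMUSG00000052234) is at chr11:87754826-87766362 and *Il5ra* (ENSMUSG00000005364) at chr6:106687318-106725998.

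**Figure D1:**
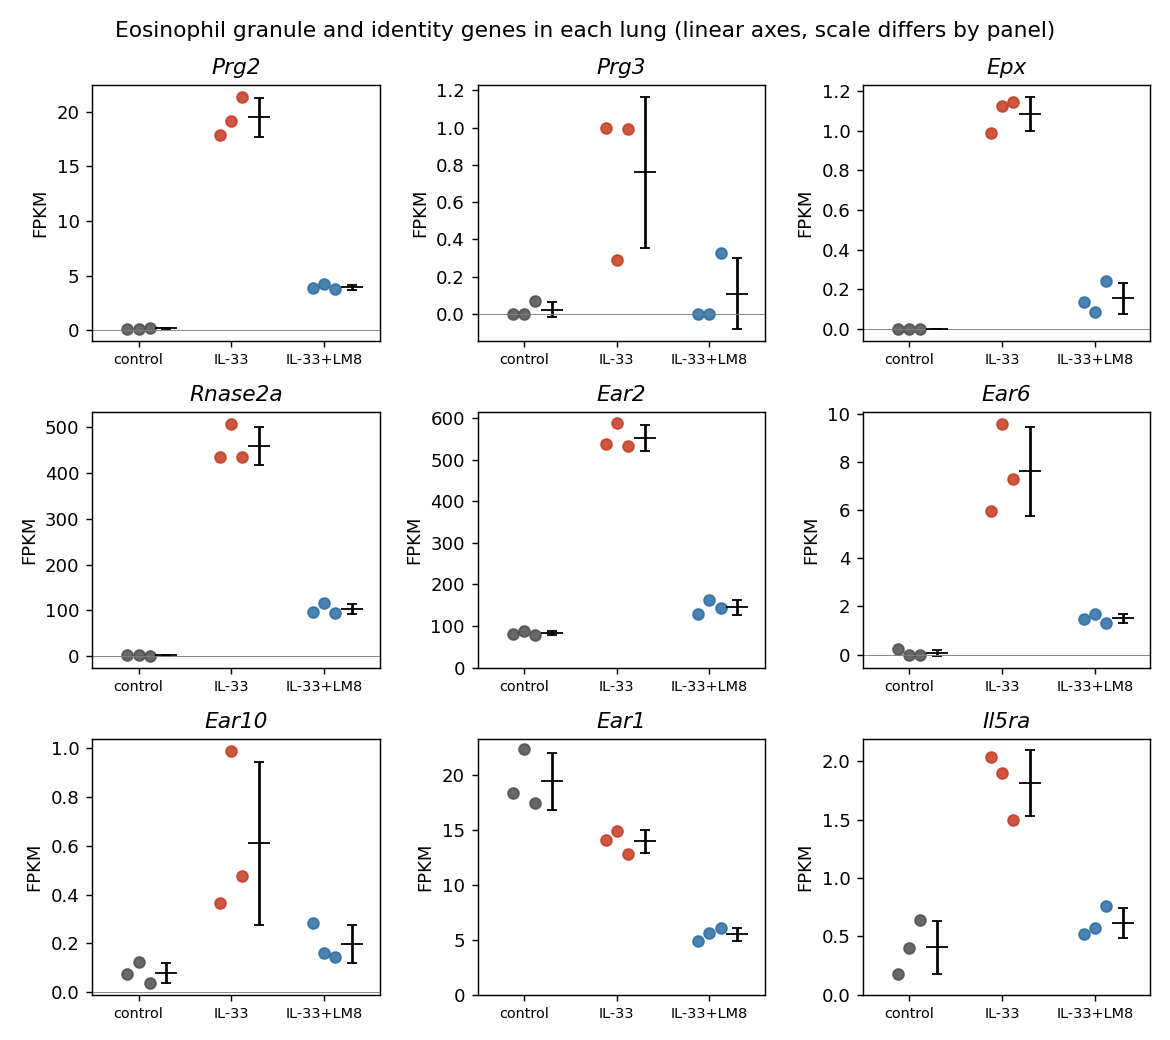
Level of each of the 9 genes in FPKM on linear axes whose range differs between panels; each point is 1 mouse, the horizontal bar is the mean and the whiskers are the SD of 3 mice. All panels except that of *Ear1* are highest in IL-33 mice, and *Ear1* runs from 17.5 to 22.4 FPKM in control mice down to 4.90 to 6.05 FPKM in IL-33+LM8 mice.

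*Prg2* encodes major basic protein, the chief protein of the granule core. It was at 0.148, 0.137 and 0.243 FPKM in the control mice, at 17.9, 19.2 and 21.4 FPKM in the IL-33 mice and at 3.84, 4.21 and 3.76 FPKM in the IL-33+LM8 mice. The groups did not overlap, with IL-33 mice highest and control mice lowest. Its mean was 111-fold higher in IL-33 mice than in control mice, a log2 fold change of 6.67 (SE 0.23, edgeR adjusted p = 1.5e-06). With LM8 it was 4.95-fold lower than with IL-33 alone, a log2 fold change of -2.31 (SE 0.13, edgeR adjusted p = 6.5e-05). It still exceeded the control level 22.4-fold, with a log2 fold change of 4.39 (SE 0.29, edgeR adjusted p = 0.00010).

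*Prg3* encodes the second form of major basic protein. Its open reading frame was 63.1% identical to that of *Prg2*, and no stretch of 31 bases was shared with another gene. It was counted 0, 0 and 6 times in the control mice, 65, 18 and 53 times in the IL-33 mice and 0, 0 and 30 times in the IL-33+LM8 mice. Each IL-33 mouse was above each control mouse, but IL-33+LM8 replicate 3 lay within the range of the IL-33 mice. Every count in control and IL-33+LM8 mice came from replicate 3 of its group, the deepest library of each. Its log2 fold change was 4.63 in IL-33 against control mice (SE 1.22, edgeR adjusted p = 0.028), and the call was lost when control replicate 1 or 2 or IL-33 replicate 1 or 3 was left out, with edgeR adjusted p values of 0.066, 0.065, 0.079 and 0.089. Neither comparison of IL-33+LM8 mice passed the test, at -2.65 against IL-33 mice (SE 1.36, edgeR adjusted p = 0.32) and 1.98 against control mice (SE 2.14, edgeR adjusted p = 0.60). Without IL-33+LM8 replicate 3 the other 2 mice of that group were at 0, and the comparison with IL-33 mice then passed with an edgeR adjusted p of 0.025.

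*Epx* encodes eosinophil peroxidase, an enzyme stored in the granule matrix. It was counted 0 times in each control mouse, where a count of 0 allows up to 3, 185, 193 and 177 times in the IL-33 mice and 24, 16 and 63 times in the IL-33+LM8 mice. The 3 groups did not overlap. Taking 3 counts per control library as the floor, IL-33 mice were at least 67.8-fold higher than control mice in counts scaled to library size (edgeR adjusted p = 0.00011). By the same measure IL-33+LM8 mice were at least 9.86-fold higher than control mice (edgeR adjusted p = 0.0095). The latter call was lost without IL-33+LM8 replicate 3 (edgeR adjusted p = 0.068). With LM8 its mean FPKM was 6.998-fold lower than with IL-33 alone, with a log2 fold change of -2.74 (SE 0.39, edgeR adjusted p = 0.0036). Without molecular identifiers in the reads, such a floor covers counting error only.

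*Rnase2a*, also named *Ear11*, encodes a ribonuclease that attracts macrophages. It was at 2.57, 2.04 and 0.406 FPKM in the control mice, at 435, 507 and 434 FPKM in the IL-33 mice and at 97.6, 116 and 95.0 FPKM in the IL-33+LM8 mice. The groups did not overlap, and control replicate 3 was the lowest mouse. Its log2 fold change was 8.12 in IL-33 against control mice (SE 0.48, edgeR adjusted p = 1.3e-05), a ratio of mean FPKM of 275. LM8 mice were 4.46-fold lower than IL-33 mice, a log2 fold change of -2.16 (SE 0.10, edgeR adjusted p = 4.6e-05). They remained 61.5-fold above control mice, a log2 fold change of 5.97 (SE 0.54, edgeR adjusted p = 0.00038).

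*Ear2* was the most abundant of the 9 genes in all 3 groups. Its level was 81.6, 88.4 and 79.7 FPKM in the control mice, 537, 589 and 532 FPKM in the IL-33 mice and 129, 163 and 143 FPKM in the IL-33+LM8 mice. The 3 groups did not overlap. The log2 fold change was 2.73 in IL-33 against control mice (SE 0.07, edgeR adjusted p = 6.9e-07) and -1.93 from IL-33 to IL-33+LM8 mice (SE 0.10, edgeR adjusted p = 5.1e-05). Against control mice, IL-33+LM8 mice differed by 0.81 (SE 0.10, edgeR adjusted p = 0.0011), which is past the threshold on p and under the minimum fold, so it was not called.

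*Ear6* was counted 15, 0 and 0 times in the control mice, 386, 568 and 388 times in the IL-33 mice and 89, 105 and 119 times in the IL-33+LM8 mice. Its FPKM was 5.95, 9.58 and 7.27 in IL-33 mice, against 1.49, 1.71 and 1.32 in IL-33+LM8 mice, with no overlap between the groups. The log2 fold change was 6.56 in IL-33 against control mice (SE 1.07, edgeR adjusted p = 0.0017) and -2.32 from IL-33 to IL-33+LM8 mice (SE 0.23, edgeR adjusted p = 0.00050). All control counts came from control replicate 1, and without it the fitted value of the first comparison was 11.89, which is no bound because the other control mice were at 0. Against control mice, IL-33+LM8 mice had a log2 fold change of 4.24 (SE 1.11, edgeR adjusted p = 0.026). That call was lost without control replicate 2, without IL-33+LM8 replicate 1 or 2 and with all genes in the fit (edgeR adjusted p values of 0.061, 0.052, 0.071 and 0.063), and DESeq2 gave an adjusted p of 0.074.

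*Ear10* was the least abundant of the 5 ribonucleases in IL-33 and IL-33+LM8 mice, and in control mice its range overlapped that of *Ear6*. It was counted 4, 6 and 2 times in the control mice, 18, 43 and 19 times in the IL-33 mice and 13, 8 and 10 times in the IL-33+LM8 mice. Its FPKM did not overlap between any 2 groups. The log2 fold change was 2.81 in IL-33 against control mice (SE 0.72, edgeR adjusted p = 0.025), a call that was lost without control replicate 1 or 3 or IL-33 replicate 2 or 3 (edgeR adjusted p values of 0.069, 0.066, 0.11 and 0.051). The other comparisons did not pass, at -1.54 against IL-33 mice (SE 0.61, edgeR adjusted p = 0.19) and 1.29 against control mice (SE 0.89, edgeR adjusted p = 0.41). Of its 31-base stretches 49.5% also occur in other genes, and its open reading frame is 97.0% identical to that of *Ear2*, which was far more abundant, so its counts are uncertain.

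*Ear1* went the other way. It was at 18.4, 22.4 and 17.5 FPKM in the control mice, at 14.1, 14.96 and 12.8 FPKM in the IL-33 mice and at 4.90, 5.60 and 6.05 FPKM in the IL-33+LM8 mice. The 3 groups did not overlap, and the control mice were highest. The difference of IL-33 from control mice was a log2 fold change of -0.48 (SE 0.13, edgeR adjusted p = 0.016), under the minimum fold and not called, and without IL-33 replicate 3 the edgeR adjusted p was 0.063. With LM8 it fell by 1.33 on the log2 scale relative to IL-33 mice (SE 0.14, edgeR adjusted p = 0.00060) and by 1.80 relative to control mice (SE 0.15, edgeR adjusted p = 0.00026). *Ear1* was thus 3.52-fold lower in IL-33+LM8 mice than in control mice, while *Ear2* was at 1.74 times its control level in the same mice.

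How reads were divided among these near-copies is not given in the sources used here. Of the 31-base stretches in *Ear1* transcripts 73.6% occur in other genes, and 60.5% of those of *Ear2*. At the read length of 150 bases the shares were 5.67% for *Ear1*, all with the pseudogene *Ear-ps9*, and 6.32% for *Ear2*, all with *Ear10*. In the table the entry of *Ear-ps9* overlaps the end of *Ear1*, and its level ran beside that of *Ear1*, at 4.48 ± 0.544, 3.48 ± 0.766 and 1.22 ± 0.160 FPKM in control, IL-33 and IL-33+LM8 mice (mean ± SD, n = 3). The counts of *Ear1* are therefore uncertain to the extent that reads of *Ear-ps9*, or of *Ear2*, were given to it or taken from it. For *Rnase2a* and *Ear6* the shared 31-base stretches were 6.36% and 8.48%, and no 150-base stretch was shared.

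*Il5ra* encodes the subunit of the IL-5 receptor that binds the cytokine. It was at 0.177, 0.401 and 0.637 FPKM in the control mice, at 2.04, 1.90 and 1.499 FPKM in the IL-33 mice and at 0.521, 0.570 and 0.763 FPKM in the IL-33+LM8 mice. IL-33 mice were above all others, and the other 2 groups overlapped. The log2 fold change was 2.15 in IL-33 against control mice (SE 0.42, edgeR adjusted p = 0.0040) and -1.54 from IL-33 to IL-33+LM8 mice (SE 0.22, edgeR adjusted p = 0.0020). IL-33+LM8 mice did not pass the test against control mice, at 0.63 (SE 0.43, edgeR adjusted p = 0.32). On log2(FPKM + 1), a scale that understates changes of low genes, limma gave -0.79 for the step from IL-33 to IL-33+LM8 mice, which was under the minimum fold.

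**Figure D2:**
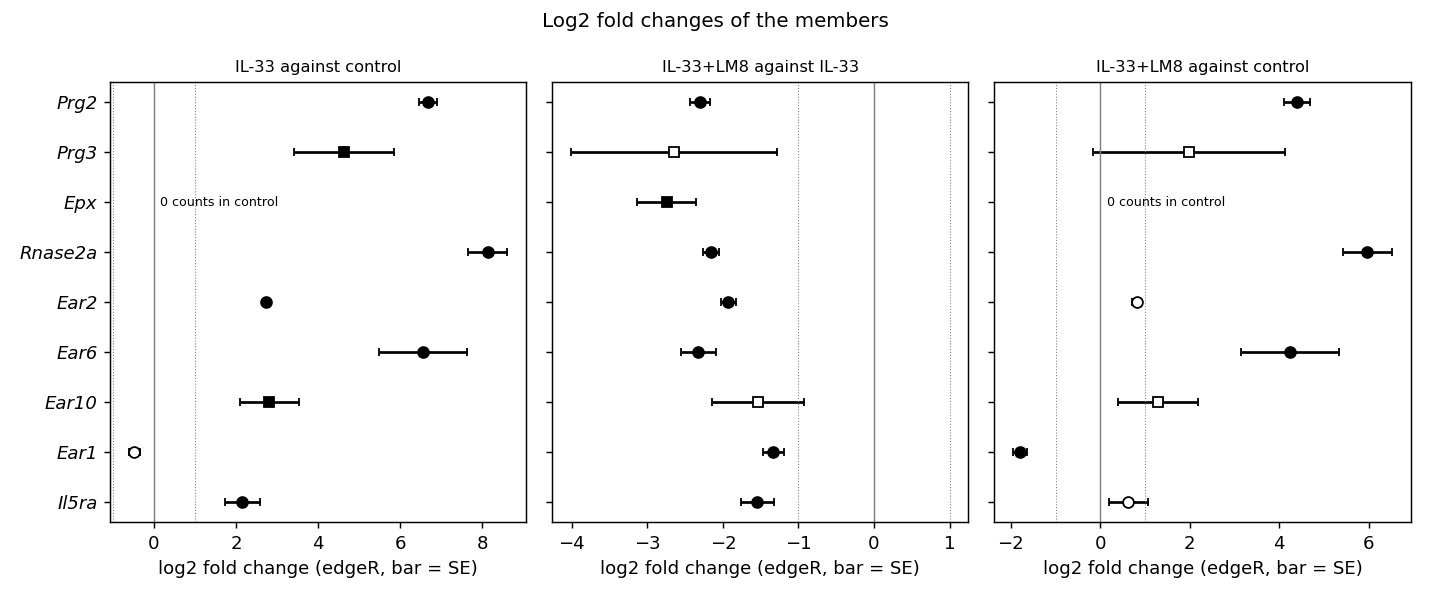
Log2 fold change of each gene from edgeR in the 3 comparisons, with bars of 1 SE; circles are genes that passed the expression filter, squares genes fitted with all genes included, filled symbols are called, and dotted lines mark the minimum fold. No value is drawn for *Epx* against control mice, which had 0 counts. In the middle panel every point lies left of 0, from -2.74 for *Epx* to -1.33 for *Ear1*.

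Counted together, 5 of the 6 genes that passed the filter were called higher and 0 lower in IL-33 against control mice, where 10.8% of all genes tested were called higher and 6.24% lower. From IL-33 to IL-33+LM8 mice 6 of 6 were called lower and 0 higher, against 3.93% and 1.46% of all genes tested. In IL-33+LM8 against control mice 3 were called higher (*Prg2*, *Rnase2a* and *Ear6*) and 1 lower (*Ear1*), against 5.87% and 1.46% of all genes. With all genes in the fit and all 9 genes counted, 8 were higher and 0 lower in IL-33 mice (6.34% and 3.68% of all genes), and 7 were lower and 0 higher once LM8 was added (2.1% and 0.792%). In that fit 3 were higher (3.24%) and 1 lower (0.937%) in IL-33+LM8 than in control mice, *Epx* now being called and *Ear6* not. *Prg2*, *Ear6* and *Il5ra* were under 0.5 FPKM on average in control mice and passed the filter through the other groups, so these counts are a description. The median log2 fold change of the 6 was 4.64 and -2.04 in the first 2 comparisons, where the medians over all genes tested were -0.01 and -0.01. The first 2 comparisons share the IL-33 mice, and the first and the third share the control mice.

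By the plain criterion that groups do not overlap, 8 of 9 genes were higher and 1 lower in IL-33 than in control mice, where 31.7% of all genes tested were entirely higher and 31.7% entirely lower. From IL-33 to IL-33+LM8 mice 8 were entirely lower and 1, *Prg3*, overlapped (22% of all genes were entirely lower and 21.2% entirely higher). Against control mice 6 were entirely higher, 1 lower and 2 overlapped, *Prg3* and *Il5ra* (23.4% and 23.9% of all genes were entirely higher and lower). Many of all genes met this criterion in each comparison, so it says less than the edgeR test.

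The distance that LM8 mice kept from control mice can be written as the share of the IL-33 rise in FPKM that remained. That share was 19.5% ± 2.21 for *Prg2*, 22.1% ± 3.21 for *Rnase2a*, 19.0% ± 5.48 for *Ear6*, 14.3% ± 7.36 for *Epx* and 13.1% ± 3.88 for *Ear2* (± SD propagated from the groups, n = 3 each). The interval of 1 SD of *Ear2* lay below those of *Prg2* and *Rnase2a*, and with a mouse left out *Ear2* ran from 11.2% to 14.9%, *Prg2* from 18.7% to 20.5% and *Rnase2a* from 20.7% to 23.4%. The intervals of the other pairs of these genes overlap, and the order was not tested. For *Il5ra*, *Prg3* and *Ear10* the share was 15.1% ± 16.9, 11.8% ± 26.9 and 22.2% ± 21.1, with an SD close to or above the value, and each rested on single mice. *Il5ra* was at 7.65% without control replicate 1 and 9.97% without IL-33+LM8 replicate 3. *Prg3* was at 19.2% without IL-33+LM8 replicate 1 or 2 and at -3.06% without replicate 3. *Ear10* was at 34.5% when IL-33 replicate 2 was dropped, and stood at 13.8% when IL-33+LM8 replicate 1 was dropped. *Ear1* had no rise to take a share of. On log2(FPKM + 1) the share was larger for each gene that rose, at 71.5% for *Rnase2a*, 50.2% for *Prg2*, 41.0% for *Ear6* and 29.0% for *Ear2*. It moved by less than the SD for *Epx* (19.4%), *Prg3* (13.9%), *Ear10* (26.5%) and *Il5ra* (21.2%).

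The make-up of the ribonuclease transcripts changed along with their level. The summed level of *Ear1*, *Ear2*, *Ear6*, *Ear10* and *Rnase2a* was 104.5 ± 7.79 FPKM in control mice, 1034 ± 76.3 FPKM in IL-33 mice and 255 ± 27.9 FPKM in IL-33+LM8 mice (mean ± SD, n = 3). In control mice *Ear2* made up 79.7% ± 1.72 of this sum, *Ear1* 18.5% ± 1.11 and *Rnase2a* 1.57% ± 1.06. In IL-33 mice *Ear2* made up 53.5% ± 0.881, *Rnase2a* 44.4% ± 0.762 and *Ear1* 1.35% ± 0.0619. With LM8 the sum was far below that of IL-33 mice and its make-up nearer to theirs than to that of control mice, with *Ear2* at 56.8% ± 1.49, *Rnase2a* at 40.3% ± 1.59 and *Ear1* at 2.17% ± 0.262.

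Shares within a mouse do not depend on how libraries were scaled. For *Ear1*, *Ear2* and *Rnase2a* each pair of groups was fully separated (exact two-sided permutation of the mice, p = 0.1, which is the lowest value possible at this size, and 0.136 after Benjamini-Hochberg adjustment over 15 tests). The share of *Ear6* was 0.0759%, 0.730% and 0.591%, with IL-33 and IL-33+LM8 mice overlapping, and that of *Ear10* overlapped in all 3 comparisons. The ratio of *Ear2* to *Ear1* was 4.44, 3.95 and 4.55 in the control mice, 38.1, 39.4 and 41.5 in the IL-33 mice and 26.3, 29.1 and 23.6 in the IL-33+LM8 mice. The ratio of *Rnase2a* to *Ear2* was 0.0199 ± 0.0135 in control mice, 0.829 ± 0.0281 in IL-33 mice and 0.711 ± 0.0466 with LM8 (SD, n = 3).

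**Figure D3:**
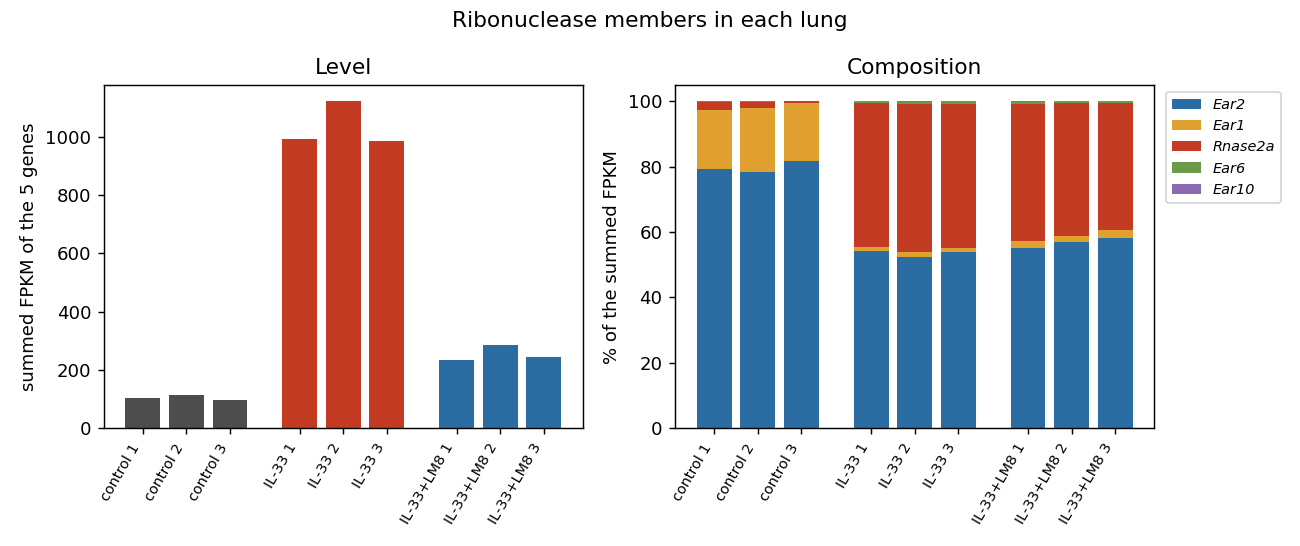
Summed FPKM of the 5 ribonuclease genes in each mouse (left) and the percentage of that sum taken by each gene (right), 1 bar per mouse. *Rnase2a* takes 44.4% on average in IL-33 mice, 40.3% with LM8 and 1.57% in control mice, although the sum in IL-33+LM8 mice is 255 FPKM against 1034 FPKM.

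In control lungs *Ear2* averaged 83.2 FPKM and *Ear1* 19.4 FPKM, while *Epx* was at 0 counts and *Prg2* reached at most 0.243 FPKM, so *Ear1* and *Ear2* were present there nearly without the defining granule genes. Genes of other cell types moved with the groups too. Of 10 alveolar macrophage markers 5 were called higher and 2 lower in IL-33 against control mice, and 2 higher and 3 lower after LM8, and none was at 0 in any group. Their summed level ran from 151 to 168 FPKM in control, from 265 to 277 in IL-33 and from 195 to 236 in IL-33+LM8 mice. By name, *Itgax*, an integrin of alveolar macrophages and dendritic cells, rose from 8.38 ± 1.05 to 70.1 ± 1.60 FPKM and was at 28.9 ± 1.86 with LM8 (mean ± SD, n = 3). *Car4* was at 80.9 ± 3.39, 54.5 ± 4.24 and 67.6 ± 3.07 FPKM and *Plet1* at 22.3 ± 0.508, 37.0 ± 1.31 and 53.0 ± 11.4 FPKM. Their part in the levels of *Ear1* and *Ear2* was not tested.

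Other eosinophil genes were in part called in the same directions. Of 16 surface and lineage genes 15 passed the filter, and 12 were called higher and 0 lower in IL-33 mice, with a median log2 fold change of 2.29. With LM8, 8 were lower, 0 higher and 7 not called against IL-33 mice (median -1.03), and 10 were higher than in control mice. *Alox15*, a lipoxygenase of eosinophils and alternatively activated macrophages, was at 0.504 ± 0.157 FPKM in control, 66.0 ± 1.24 in IL-33 and 17.5 ± 1.25 in IL-33+LM8 mice, with log2 fold changes of 7.02 and -1.91 in the first 2 comparisons. *Csf2ra*, which encodes the GM-CSF receptor's own subunit, rose by 2.29 and was 1.23 lower in log2 units with LM8, at 9.88, 48.3 and 20.6 FPKM. The receptor chain shared by IL-5, IL-3 and GM-CSF, *Csf2rb*, rose by 2.38 and its difference with LM8 was -0.71 (SE 0.05), under the minimum fold, while its mouse-specific relative *Csf2rb2* changed by 2.84 and -1.03. The inhibitory receptor gene *Pirb* rose by 1.96 and was at -0.10 (SE 0.10) with LM8, and *Adgre1*, the F4/80 antigen, rose by 1.78 and was at -0.92 (SE 0.07).

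Some genes of that list were chosen for mention after their values were seen. *Ccr3*, the eotaxin receptor of eosinophils, was at 0.0505 ± 0.0438 FPKM in control, 5.15 ± 0.678 in IL-33 and 0.643 ± 0.129 in IL-33+LM8 mice, and *Siglecf*, a surface lectin of eosinophils and alveolar macrophages, at 3.40 ± 0.112, 7.95 ± 0.836 and 1.93 ± 0.168. Both rose with IL-33, by 6.60 and 1.22 on the log2 scale. *Siglecf* in IL-33+LM8 mice lay below control mice, at -0.80 (SE 0.13, edgeR adjusted p = 0.0037), without reaching the minimum fold. The granulocyte factor gene *Cebpe* had log2 fold changes of 7.67 and -2.56, and *Gata1*, the factor that commits cells to the eosinophil lineage, 2.41 and -1.27. In contrast, *Il3ra*, *Ltc4s* and *Zfpm1* were called neither with IL-33, at 0.94, 0.60 and -0.11, nor with LM8, at -0.36, -0.60 and 0.01. Of these, *Il3ra* was past the threshold on p and under the minimum fold in both comparisons (edgeR adjusted p = 0.00015 and 0.017). *Pira2* rose by 1.90 with IL-33 and was at -0.04 with LM8.

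The signals that draw eosinophils in were in part called higher with IL-33, and with LM8 1 of them was called. Of 14 genes of the IL-5 and recruitment pathway with an entry, 8 were called higher and 0 lower with IL-33 (median log2 fold change 1.16), and 1, *Ccl24*, was lower with LM8 than in IL-33 mice (median -0.07). *Ccl11*, eotaxin, was at 1.69 ± 0.201 FPKM in control, 101 ± 1.86 in IL-33 and 108 ± 33.9 in IL-33+LM8 mice, a difference of 0.11 with LM8 (SE 0.21, edgeR adjusted p = 0.75). *Ccl24*, eotaxin-2, was at 0.656 ± 0.266, 176 ± 12.1 and 43.0 ± 20.7 FPKM, with log2 fold changes of 8.08 and -2.03. *Il5* itself, named here after its values were seen, was at 0.0807 ± 0.0789, 4.05 ± 0.0341 and 2.21 ± 0.399 FPKM, and its log2 fold change with LM8 was -0.87 (SE 0.18, edgeR adjusted p = 0.011), under the minimum fold. Of the kinases and factors behind the receptor, *Jak2* rose by 1.11 with IL-33, whereas *Jak1* was at 0.27, *Stat5b* at -0.07 and the survival gene *Bcl2l1* at -0.74, none of them called. *Jak1* and *Bcl2l1* were past the threshold on p and under the minimum fold (edgeR adjusted p = 0.0020 and 8.1e-06), and *Stat5b* was not past it (edgeR adjusted p = 0.24). *Stat5a*, also named after its values were seen, rose by 1.21 (SE 0.09, edgeR adjusted p = 4.6e-05).

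Other members of the ribonuclease A superfamily took no common course. Of 13 with an entry 4 passed the filter, with 2 called higher and 2 lower in IL-33 against control mice. *Rnase4*, which shares its locus with *Ang*, fell by 1.38 on the log2 scale, from 309 ± 12.7 to 119 ± 9.26 FPKM, and *Ang*, angiogenin, fell by 1.00, from 18.3 ± 1.57 to 9.15 ± 1.11 FPKM. *Rnase6*, a ribonuclease of monocytes and macrophages, rose by 1.48, from 3.37 ± 0.366 to 9.40 ± 1.09 FPKM. *Rnase2b*, also named *Ear5*, rose by 6.10, from 0.0224 ± 0.0387 to 1.87 ± 0.493 FPKM, and was the only one of the 4 called with LM8, at -2.58. *Rnase1* and *Rnase12* did not pass the filter, with means of 0.871 and 0.206 FPKM in IL-33 mice.

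**Figure D4:**
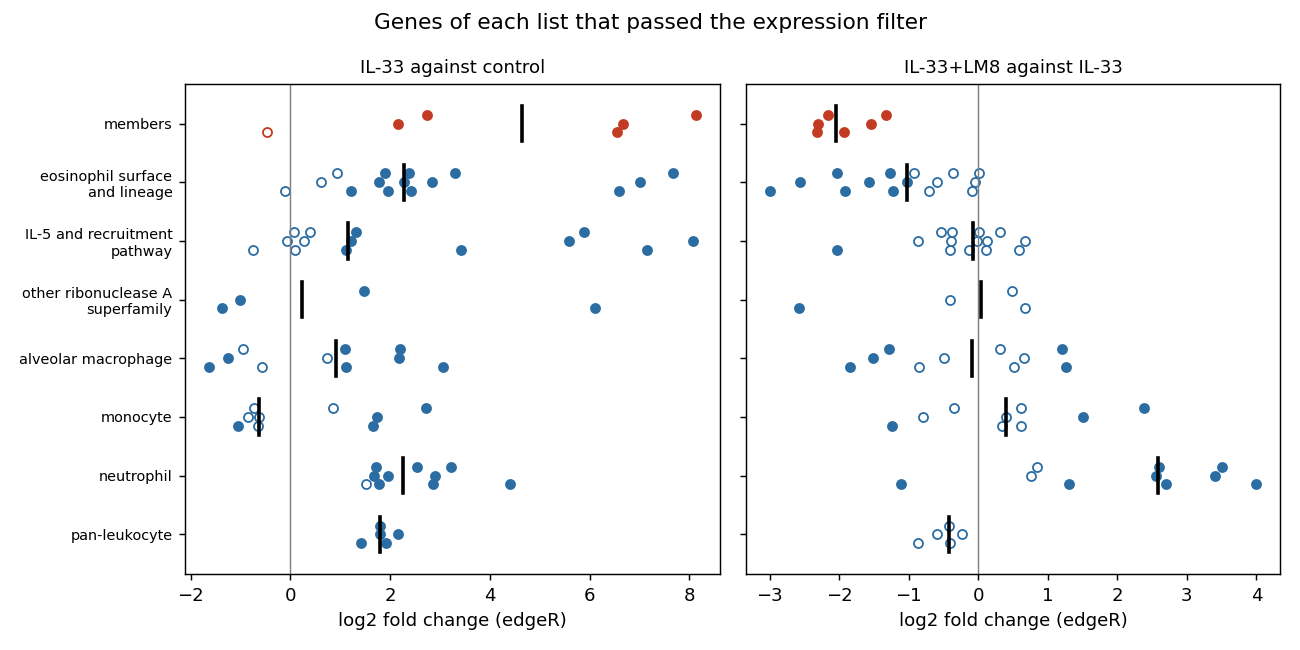
Log2 fold changes from edgeR for genes of each list that passed the expression filter, for IL-33 against control mice (left) and for IL-33+LM8 against IL-33 mice (right); each point is 1 gene, filled where called, and the bar is the list's median. On the right the eosinophil genes lie mostly below 0 (median -1.03), the IL-5 and recruitment genes near 0 (median -0.07) and the neutrophil genes mostly above 0 (median 2.58).

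Other leukocyte lists show what else differed between the lungs. Of 10 neutrophil markers 9 were called higher with IL-33, and with LM8 7 were higher and 1 lower than in IL-33 mice. Their summed level ran from 34.4 to 40.8 FPKM in control, from 247 to 279 in IL-33 and from 956 to 1082 in IL-33+LM8 mice, led by *S100a9*, *Retnlg* and *S100a8*. All 5 pan-leukocyte genes were called higher with IL-33 and 0 of 5 called with LM8 (median -0.43). Each was lower with LM8, from -0.87 to -0.24, past the threshold on p and under the minimum fold. Their sums were 102 to 114, 390 to 408 and 272 to 280 FPKM, led by *Coro1a*, *Laptm5* and *Lcp1*. Of 9 monocyte markers 3 were called higher and 1 lower with IL-33, and 2 higher and 1 lower with LM8. The most abundant were *Ace*, *Fn1* and *Nr4a1*. Sums of the monocyte markers ran from 387 to 454, from 427 to 446 and from 387 to 464 FPKM. Most of each sum was *Ace*, at 311, 173 and 265 FPKM on average, and *Fn1*, at 58.0, 192 and 80.9 FPKM. These moved in opposite directions, so the near-level sums do not describe the other monocyte markers. Basophil and mast cell markers stayed low, with sums between 3.02 and 5.22 FPKM over all mice, led by *Cpa3*, *Cma1* and *Fcer1a*. The first 2 of these passed the filter and neither was called in any comparison. None of these lists had a marker at 0 in all mice of a group.

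Non-leukocyte genes shifted as well. Of 6 red blood cell genes, with *Hbb-bs*, *Hba-a1* and *Hba-a2* the most abundant, 5 were called lower with IL-33 and 6 higher with LM8 than in IL-33 mice, with sums of 7848 to 9293, 2539 to 3188 and 10886 to 12338 FPKM. Of 8 lung tissue genes, with *Scgb1a1*, *Sftpc* and *Sftpa1* the most abundant, 2 were called lower and 1 higher with IL-33, and 1 lower with LM8, with sums of 34194 to 37047, 15664 to 16853 and 28940 to 31359 FPKM. The part of these shifts in the levels of the 9 genes was not tested. Summed as CPM, the count scaled to library size, the 9 genes took 75.8 to 86.7 in control, 754 to 859 in IL-33 and 178 to 218 in IL-33+LM8 mice.

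The genes whose pattern over the 9 mice was most like that of each eosinophil gene were found by the root mean square difference of centred log2(FPKM + 1), among 16825 other genes above the filter. Nearest to *Prg2* was *Pdcd1lg2*, the PD-1 ligand PD-L2, at a distance of 0.14, followed by *Gm8113* (0.17) and the IL-25 receptor gene *Il17rb* (0.20). Nearest to *Ear2* was *Trem2*, a macrophage receptor gene, at 0.10, then *Cebpe* (0.14) and *Tmem26* (0.17). *Ear6* had *Cebpe* (0.18), the phosphatase gene *Acp5* (0.19) and *Ocstamp* (0.19). *Il5ra* had *Gla* (0.08), *Snx5* (0.11) and *Mreg* (0.11), but its own range on this scale is small.

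For *Ear1* the nearest were the pseudogene *Ear-ps9* (0.18) followed by *Ndnf* (0.22) and the extracellular matrix gene *Mfap4* (0.25). *Mfap4* was at 478 ± 86.6, 302 ± 14.4 and 124 ± 8.43 FPKM and *Ndnf* at 17.5 ± 0.624, 16.4 ± 1.14 and 6.12 ± 0.404 FPKM in control, IL-33 and IL-33+LM8 mice. *Rnase2a* had no close match, its nearest being *Ccl24* at 0.53, the chitinase-like gene *Chil4* at 0.54 and the arginase gene *Arg1* at 0.67. Among the 6 genes above the filter *Ear2* and *Ear6* were closest at 0.24, and *Ear1* and *Ear2* lay 1.35 apart. The closeness of *Ear2* and *Ear6* is not one of response, since their edgeR log2 fold changes with IL-33 were 2.73 and 6.56. These distances describe 9 mice in 3 groups and carry no test.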

How the data were processed

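Lung RNA of 9 mice was extracted with TRIzol and sequenced in paired ends of 150 bases on an Illumina NovaSeq instrument. The authors deposited 1 table with the read count of each of 34638 genes in each mouse, not normalised, and FPKM values that the authors' sequencing company computed from gene length and library size. The submitters' processing notes name Bowtie 0.12.2, HISAT2 2.0, StringTie 1.3.0 and mm10, with no roles; the counting tool and its treatment of shared reads are not given in the sources used here. Gene positions in the table differ from GRCm38, so no coordinate was taken from one to the other. The table's 281 entries that share a symbol with another did not include the 9 genes.

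The 9 genes and all gene lists were chosen with earlier results of these data known. All 9 are described, and from each other list the genes of highest mean FPKM are named (up to 6 from the eosinophil, IL-5 and ribonuclease lists, up to 3 from the others), as are the 3 genes nearest in pattern to each of the 6 genes above the filter; further names are marked. *Rnase11*, *Ang4* and *Il3* were listed but not analysed here.

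Counts were tested with edgeR 4.0.16 (R 4.3.3; quasi-likelihood test, TMM normalisation) on the 6 mice of each comparison, over genes that averaged 0.5 FPKM or more and had a count above 0 (16831, 16831 and 16829 genes). The SE is the log2 fold change divided by the square root of the F statistic. The script was tested on simulated data first. Alternatives were median-of-ratios scaling, no filter and a filter at 5 FPKM, DESeq2 1.42.0, limma 3.58.1 on log2(FPKM + 1) and log2(FPKM + 0.1), no minimum fold, all 9 mice in 1 fit, each mouse left out and a replicate block. Leaving out the 3 libraries that deviated together, and each mouse in the fit without a filter, were chosen after seeing the data. Libraries of a group differed by far more than sampling noise, so none was a copy of another.

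Groups share replicate numbers. Deviations of same-numbered mice correlated at -0.42, 0.28 and -0.28 in IL-33 and control mice and at -0.38, 0.22 and -0.40 in IL-33+LM8 and IL-33 mice, so the numbers do not pair them. In IL-33+LM8 and control mice they correlated at 0.31, 0.32 and 0.67, and those of differently numbered mice at -0.44 to 0.20. The value of 0.67 is that of control replicate 3 and IL-33+LM8 replicate 3, which deviated together with IL-33 replicate 1. The latter, numbered differently, correlated with them at 0.65 and 0.67. The labels state no pairing, and these values do not settle whether the numbers pair those groups. Sequences came from GENCODE M21 transcripts and RefSeq promoter windows (GRCm38.p6), aligned with Biopython 1.88. Lists are described by counts and medians and were not tested as sets.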

Additional observations from a re-analysis of the deposited data

How the results depend on the processing

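Precision was limited by 3 mice a group and, for *Prg3*, *Epx*, *Ear6* and *Ear10*, by counts at or near 0 in control mice. Between IL-33 and control mice 5 of 6 genes were called, which became 8 of 9 with all genes in the fit and 3 of 4 with a mean of at least 5 FPKM, since those filters admit other genes. With a mouse left out the number was 5 to 5, and it was 6 to 6 between IL-33+LM8 and IL-33 mice and 3 to 4 between IL-33+LM8 and control mice. The replicate block gave 5, 6 and 4 called in the 3 comparisons and changed no call among the 6 genes tested. Without the 3 libraries that deviated together the numbers were again 5, 6 and 4.

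Of the log2 fold changes of single genes under the alternatives, 301 had the same sign and the same call, 15 lost a call, 1 gained it and 1 reversed. Of the shares of the IL-33 rise that remained, 84 moved by less than the SD and 4, all on log2(FPKM + 1), by more. The reversal was *Prg3* between IL-33+LM8 and control mice, which ran from -3.92 without IL-33+LM8 replicate 3 to 5.97 without control replicate 3. The difference in the share of *Ear10*, in percentage points, ran with a mouse left out from -0.0338 to 0.00106 between IL-33 and control mice (reversed without control replicate 2), and from -0.000248 to 0.0367 between IL-33+LM8 and IL-33 mice (reversed without IL-33+LM8 replicate 1). Between IL-33+LM8 and control mice it ran from -0.0166 to 0.0225, reversed without IL-33+LM8 replicate 1 and, at -0.0123, without control replicate 3. The cause was not tested.

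Over all genes, 2865, 907 and 1233 were called in the 3 comparisons, against 9193, 4459 and 4997 with no minimum fold, 1176, 304 and 469 at a mean of at least 5 FPKM and 1741, 439 and 588 with limma on log2(FPKM + 1).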
